A study of Mus musculus with 7 samples.

Results

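The comparison set the colon epithelium of mice on day 3 after a course of DSS against that of untreated mice, using 2 of the 7 libraries of the study. DSS (dextran sulfate sodium) is a sulfated polysaccharide that damages the lining of the colon when it is drunk, and the injury and its healing are a standard model of colitis. Both libraries came from female hCYP1A mice on the C57BL/6 strain, 6 weeks old at the start, a line in which human CYP1A genes stand in place of the mouse ones. The control mice were untreated and carry the pathology label normal. The DSS day 3 mice drank 1.5% DSS for 5 days, were killed 3 days after it ended, and carry the label colitis. Each library is 1 pool of equal amounts of RNA from 3 mice, taken from epithelium scraped off the muscle layer, so there is 1 measurement per condition with no replicate, and mice within a pool cannot be told apart. The other 5 libraries are DSS on days 1 and 7, and PhIP, a carcinogen of cooked meat, followed by DSS on days 1, 3 and 7. The members of the comparison are the genes with at least 10 unique reads summed over the pair, 13603 of the 16855 genes listed in either library. At the edge of this rule 113 genes had exactly 10 reads and entered, and 142 had 9 and did not.

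The colon surface is a single sheet of absorptive and mucus-secreting goblet cells, renewed from stem cells at the base of the crypts and kept apart from bacteria by mucus and secreted antibacterial proteins. When the sheet is broken, bacteria reach the tissue below, sentinel cells release interleukin 1, tumour necrosis factor and chemokines, and neutrophils and monocytes enter from the blood. The epithelium then closes the wound by spreading and dividing, and it passes through a state that shares genes with the fetal gut while many genes of the mature colonocyte are low.

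In these genes the control library held 7658683 unique reads and the DSS day 3 library 8776424. Levels are given as RPKM, reads scaled to the length of the gene and to the library total. Ratios are of reads scaled to the library totals, and the interval after a ratio is the exact 95% interval that the 2 read counts allow. It covers counting error only and says nothing of the spread between mice. A gene with 0 reads on a side was set to a floor of 3 reads there, and its ratio is then a bound. Such a bound holds at that floor and is not an end of the 95% interval, which can lie nearer to 1. General epithelial genes checked the tissue label. All 16 were found, with a summed level of 14034 RPKM in the control and 13637 RPKM in DSS day 3, and a median log2 ratio of 0.04, 1 of them being past 2-fold. Epcam, an adhesion protein of epithelial cells, stood at 718 and 895 RPKM, and Cdh1, the epithelial cadherin, at 511 and 442 RPKM.

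Most genes were at a similar level in the pair. Of the 13603 genes, 81.8% lay within 2-fold, 1231 (9.05%) were at least 2-fold higher in DSS day 3 and 1247 (9.17%) at least 2-fold lower, with a median log2 ratio of -0.05. The 2 directions were alike in number but not in size. At least 8-fold higher were 306 genes and at least 8-fold lower 102, and at least 32-fold higher were 73 genes and at least 32-fold lower 10. Genes low in 1 of the 2 libraries made up much of each count, some of them abundant in the other. Of the higher genes, 805 were below 1 RPKM in the control, and of the lower genes, 753 were below 1 RPKM in DSS day 3. Among the 6605 genes at 10 RPKM or more in either library, 316 were higher and 266 lower. The higher genes together took 1.71% of the control's reads and 5.83% of the reads of DSS day 3, and the lower genes 6.00% and 1.94%. There is no sharp edge at 2-fold, since 74 genes had a log2 ratio within 0.01 of that size. The shares of 9.05% and 9.17% are the ones to set beside the counts of each list below. A list with counts near them does not stand out from all genes.

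**Figure D1:**
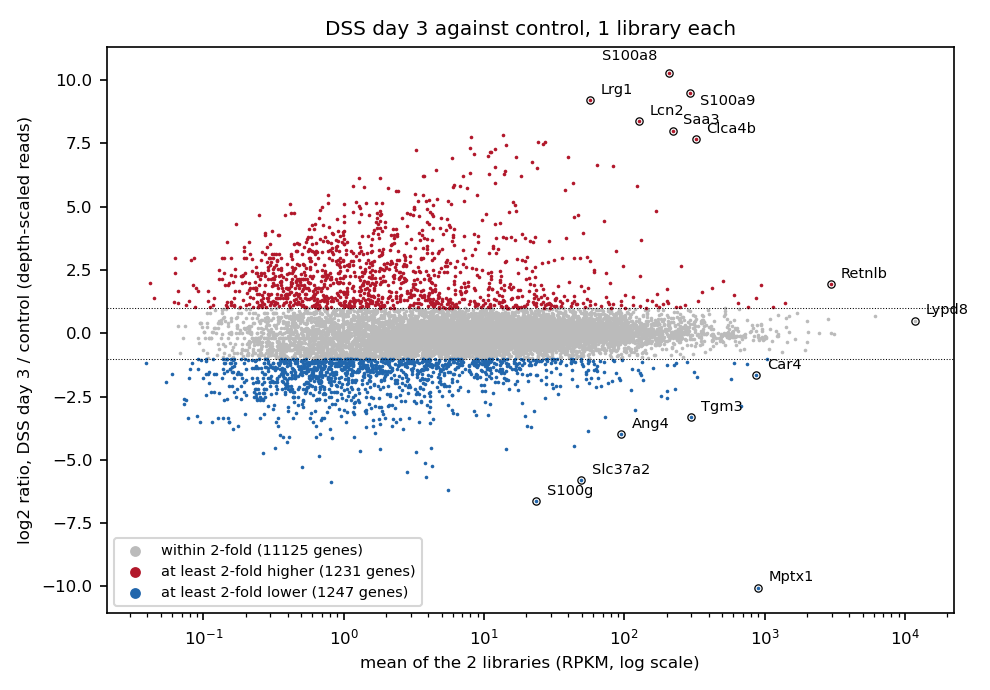
Each point is 1 of 13603 genes, placed by its mean level in the 2 libraries (RPKM, log scale) and its log2 ratio of depth-scaled reads (DSS day 3 over control), with dotted lines at 2-fold. The 306 genes at least 8-fold higher outnumber the 102 at least 8-fold lower, and the calprotectin genes S100a8 and S100a9 at the top and Mptx1 at the bottom stand farthest from 0.

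The genes with the largest ratios encode secreted proteins of the acute response and products of neutrophils. S100a9 (chr3:90692630-90695721, GRCm38.p6), a subunit of the zinc- and manganese-binding protein calprotectin, stood at 0.802 RPKM (3 reads) in the control and 583 RPKM (2497 reads) in DSS day 3 (ratio 726, 248 to 3525). Its partner S100a8 (chr3:90669071-90670034) stood at 0.333 RPKM on 1 read and at 416 RPKM on 1433 reads (ratio 1251, 224 to 49431). Both were close to undetected in the control, so the upper ends of their intervals are poorly set. Lrg1, a leucine-rich acute phase glycoprotein, was at 0.19 RPKM (2 reads) and 113 RPKM (1366 reads) (ratio 596, 165 to 4927). Lcn2, lipocalin 2, which binds the iron carriers of bacteria, was at 0.765 and 253 RPKM (ratio 331, 142 to 1020.4). Saa3, an inducible serum amyloid A protein, was at 1.72 and 442 RPKM (ratio 257, 124 to 639). The best counted gene among the 15 highest was Clca4b (chr3:144910921-144932529), a member of the CLCA family of secreted proteins of the gut surface. It stood at 3.13 RPKM (72 reads) in the control and 643 RPKM (16911 reads) in DSS day 3 (ratio 205, 163 to 262). It has near-identical neighbours, so its reads may be shared in part with them.

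The lowest ratio belonged to Mptx1 (chr1:174330518-174332877), a mucosal pentraxin made by the gut epithelium, which was among the abundant genes of the control. It stood at 1804 RPKM on 11102 reads in the control and at 1.7 RPKM on 12 reads in DSS day 3 (1060.1-fold lower, 607 to 2052). Slc37a2 (chr9:37229149-37255738), a sugar phosphate carrier of the endoplasmic reticulum, was at 97.3 and 1.74 RPKM on 3312 and 68 reads (55.8-fold lower, 43.9 to 72). S100g (chrX:162961992-162964599), the calcium-binding protein calbindin-D9k, had 172 reads in the control and 2 in DSS day 3, at 46.8 and 0.474 RPKM (98.5-fold lower, 26.9 to 820.2). Of these, S100g was near undetected after DSS, while Mptx1 and Slc37a2 were still counted at low levels. Tgm3, a transglutaminase that cross-links proteins, was at 542 and 55 RPKM (9.85-fold lower, 9.4 to 10.3). On the RPKM scale the largest differences on the lower side besides Mptx1 were Sycn, a secretory granule protein, at 1203 and 165 RPKM, and Car4, the carbonic anhydrase of the colonocyte brush border, at 1326 and 421 RPKM.

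**Figure D2:**
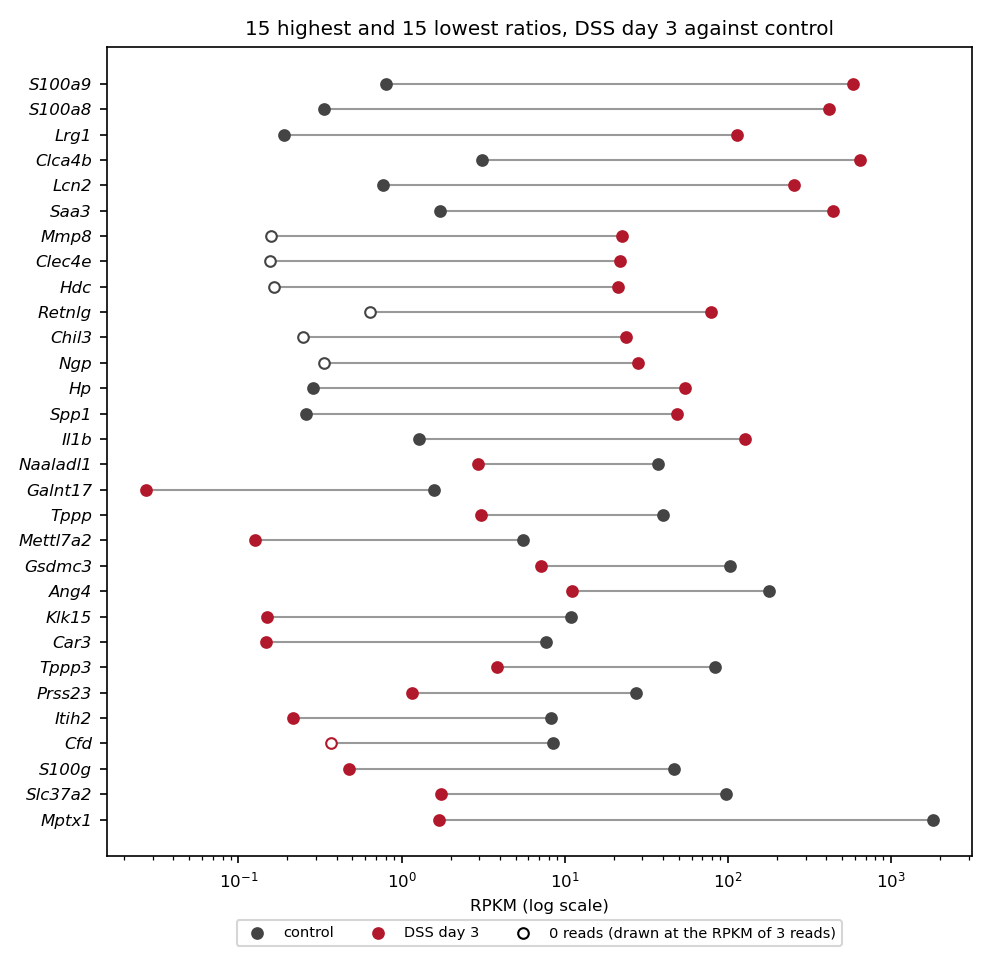
Level in RPKM (log scale) of the 15 genes with the highest and the 15 with the lowest ratio, ranked by the bound of the interval nearer to 1, in the control (grey) and DSS day 3 (red), 1 library each. Open circles mark 0 reads, drawn at the RPKM of 3 reads, and Mptx1 runs from 1804 RPKM in the control to 1.7 RPKM in DSS day 3.

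Interleukin 1 genes and their receptors were far apart. Of 15 tested genes of the family (of 18 asked for), 8 were at least 2-fold higher, 2 lower and 5 within 2-fold, with a median log2 ratio of 1.24. Il1b, the cytokine cleaved by caspase 1, stood at 1.28 RPKM in the control and 127 RPKM in DSS day 3 (ratio 99.6, 58.1 to 188). Il1a, its relative released by dying cells, was at 0.33 and 11.4 RPKM (ratio 34.4, 14.5 to 107). The inhibitors were higher as well. Il1r2, a decoy receptor, had 0 reads in the control and 182 in DSS day 3, so it was at least 52.9-fold higher. Il1rn, the receptor antagonist, was already well expressed in the control, with 55.1 and 134 RPKM (ratio 2.42, 2.26 to 2.6). The signalling receptor Il1r1 was on the other side, at 7.3 and 2.18 RPKM (3.35-fold lower, 2.63 to 4.29), as was Il1rl2, the receptor of interleukin 36, at 1.87 and 0.526 RPKM. Il33, an alarmin of barrier cells, was at 0.715 and 7.09 RPKM (ratio 9.91, 5.74 to 18.5), and its receptor Il1rl1 at 0.205 and 6.12 RPKM (ratio 29.8, 14.9 to 69.7). Il18, by contrast, was at 79.2 and 111 RPKM, a log2 ratio of 0.48.

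The oncostatin M and interleukin 6 branch gave 6 higher and 1 lower of 13 tested genes (median log2 ratio 0.50). Osm, oncostatin M, a cytokine of myeloid cells, had 0 reads in the control and 54 in DSS day 3, at least 15.7-fold higher, and its receptor Osmr was at 0.351 and 2.64 RPKM (ratio 7.52, 4.22 to 14.6). Il11, which drives STAT3 in stroma and epithelium, was at 0.402 and 2.8 RPKM (ratio 6.98, 2.98 to 19.96). Il6 itself had 0 reads in the control and 5 in DSS day 3 and did not reach the read minimum. Socs3, the feedback inhibitor that STAT3 switches on, stood at 2.71 and 36.3 RPKM (ratio 13.4, 10.2 to 17.8), while Stat3 had a log2 ratio of 0.42 and the shared receptor Il6st one of -0.02. Lifr, the receptor of leukaemia inhibitory factor, was lower, at 2.65 and 0.377 RPKM (7.02-fold lower, 4.81 to 10.5). Of the interleukin 17, 22 and 23 list, only 7 of 16 genes reached the read minimum, most of them receptors. Il17a had 0 reads and 9 reads, and Il22 had 0 in both. Il22ra2, a soluble decoy of interleukin 22, was at 21 and 4 reads (6.02-fold lower, 2.03 to 24.1).

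In the tumour necrosis factor list the cytokine itself was higher and most members were within 2-fold. Tnf was at 0.403 and 9.5 RPKM (ratio 23.6, 9.85 to 73.7). Tnfaip2, a target of it, was at 0.40 and 17.5 RPKM (ratio 43.9, 24.3 to 88.4), and the receptor Tnfrsf1b at 6.61 and 45.1 RPKM (ratio 6.82, 5.98 to 7.82). The subunits stayed close to the control, with log2 ratios of 0.03 for Nfkb1, 0.09 for Nfkb2, -0.01 for Rela and -0.56 for Relb. So did the feedback genes Tnfaip3, at -0.23, and Birc3, at -0.28, whereas the atypical inhibitor Nfkbiz had a ratio of 3.4. In all 7 of 22 genes were higher, 0 lower and 15 within 2-fold (median log2 ratio 0.29).

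Chemokines that draw neutrophils were at or near 0 in the control and clearly counted after DSS. All 6 tested members of that list (of 9 asked for) were at least 2-fold higher, with a median log2 ratio of 4.13. Cxcl2 had 1 read in the control and 259 in DSS day 3, 0.12 and 27.2 RPKM (ratio 226, 40.2 to 8962). Cxcl3 had 0 and 130 reads, at least 37.8-fold higher. Cxcl5, which epithelial cells make, was at 0.867 and 10.9 RPKM (ratio 12.6, 6.86 to 25.8). A member with so few control reads could pass the read minimum only through DSS day 3, so the count of members that passed carries no weight of its own. The same holds for the members of any list that were near 0 in the control. These include members of the acute phase, neutrophil, macrophage, stromal, matrix enzyme and developmental signal lists. Cxcr2, their receptor on neutrophils, was at 1.46 and 9.95 RPKM (ratio 6.83, 4.77 to 10.1). The promoters of Cxcl2 and Cxcl3 are shown because they had the largest ratios among members of this list with the NF-kB consensus. Matches in genes near the control, such as Nfkb2 and Tnfaip3, are not printed. The sequences are RefSeq's (GRCm38.p6, plus strand, the genes' own strand), 5′ to 3′, and the capitals mark 2 matches that overlap, 1 on each strand, beginning 97 bases before the start site of Cxcl2 and 73 before that of Cxcl3.
Cxcl2, chr5:90903767-90903846: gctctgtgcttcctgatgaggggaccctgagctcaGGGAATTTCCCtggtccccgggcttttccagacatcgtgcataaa
Cxcl3, chr5:90785993-90786072: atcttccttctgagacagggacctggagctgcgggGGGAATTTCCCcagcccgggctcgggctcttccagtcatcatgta
The consensus was searched on both strands of windows from 250 bases before to 50 after the start, which were at hand for 10826 tested genes. It was found in 3 of 5 genes of the neutrophil chemokine list and 8 of 19 of the tumour necrosis factor list that had a window, against 12.4% of all. Among higher genes the share was 15.5% and among lower genes 11.9%. A match is a description of the letters and not a site shown to be bound.

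Chemokines for other cells were mixed. Ccl3 and Ccl4, which attract monocytes and whose gene models overlap in the table so that their reads cannot be fully told apart, were at 0.162 and 28.3 RPKM (ratio 175, 31 to 6928) and at 0.387 and 23.7 RPKM (ratio 61.1, 16.6 to 509). Ccl2, on 1 read in the control, was at 1.84 RPKM in DSS day 3 (ratio 11.3, 1.7 to 482). The T cell attractants Cxcl9 and Cxcl10 were higher, with 0.359 and 7.49 RPKM (ratio 20.8, 10.4 to 49) for Cxcl9 and 2.45 and 22.1 RPKM (ratio 9.02, 5.75 to 14.9) for Cxcl10. Ccl5 and Cxcr3, found on or in T cells, were not, at log2 ratios of -0.82 and -0.78. The epithelial chemokine Ccl28 was at 48.2 and 57.9 RPKM. Of the 16 tested CC chemokines and receptors 7 were higher and 2 lower, the latter Ccl22 and Ccr6.

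Acute phase genes were among the farthest apart, with 11 of 14 tested members higher, 0 lower and a median log2 ratio of 6.93. The 3 others were Lbp, at a log2 ratio of 0.48, and 2 serum amyloids that were well expressed in the control. Saa1 stood at 1283 and 1192 RPKM (log2 ratio -0.11) and Saa2 at 113 and 96.1 RPKM (-0.24), while Saa3 was the member near 0 in the control. Hp, haptoglobin, which binds free haemoglobin, was at 0.287 RPKM on 3 reads and 54.4 RPKM on 652 reads (ratio 189.7, 64.6 to 922). Chil1, a chitinase-like lectin, was at 0.153 RPKM on 2 reads and 23.8 RPKM on 356 reads (ratio 155, 42.7 to 1288). The sequences below lie before the start sites of S100a9 and Lcn2 (GRCm38.p6, minus strand, the genes' own strand, from RefSeq), with capitals on the match to the C/EBP motif TTNNGCAA or its complement. C/EBP factors act in the acute phase and in myeloid cells.
S100a9, chr3:90695892-90695971: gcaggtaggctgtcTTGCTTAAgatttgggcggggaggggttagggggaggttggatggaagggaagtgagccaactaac
Lcn2, chr2:32387910-32387989: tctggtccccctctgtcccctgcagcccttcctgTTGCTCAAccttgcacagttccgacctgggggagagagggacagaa
The matches begin 236 and 216 bases before the start. The motif was in 6 of the 12 acute phase genes with a window and in 10.5% of all 10826 genes. Saa1 and Saa2, both within 2-fold, were among the 6. Higher and lower genes had the motif alike, in 14.3% and 14.4%. No match to another motif searched here overlapped the C/EBP match in these stretches.

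The antibacterial genes of the colon went both ways. The antibacterial Reg lectins included Reg3b, at 1.72 and 166 RPKM (ratio 96.4, 52.2 to 201), and Reg3g, at 0.506 and 47.1 RPKM (ratio 93.1, 31.6 to 454). Reg4, a product of secretory cells, was at 274 and 233 RPKM and thus within 2-fold. Of the genes that the healthy colon expresses, 4 of 13 were higher and 3 lower. Retnlb, a bactericidal protein of goblet cells, was at 1227 and 4683 RPKM (ratio 3.82, 3.72 to 3.92), the second largest gain in RPKM of any gene after that of Lypd8, which keeps flagellated bacteria from the surface and stood at 9779.5 and 13825 RPKM (ratio 1.41, 1.4 to 1.43). The 3 lower members were Mptx1, described above, Ang4, an angiogenin that kills bacteria, and Wfdc2, a protease inhibitor with antibacterial action. Ang4 was at 178 and 11.1 RPKM (16-fold lower, 12.5 to 20.8) and Wfdc2 at 334 and 68.4 RPKM (4.88-fold lower, 4.39 to 5.44). Pigr, which carries immunoglobulin A to the lumen, was at 1598 and 1266 RPKM, a log2 ratio of -0.34. Pla2g2a, listed as a transcribed pseudogene in the C57BL/6 reference, was at 3.41 and 41.6 RPKM.

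Enzymes that make oxidants were higher in 9 of 12 tested cases and lower in 0 (median log2 ratio 1.88). Nos2, the inducible nitric oxide synthase, stood at 1.41 and 84.8 RPKM (ratio 60.3, 44.7 to 83.5). Duox2 and its partner Duoxa2 form the hydrogen peroxide source of the colon surface, and they were at 25.2 and 85.6 RPKM (ratio 3.4, 3.16 to 3.67) and at 12 and 96.8 RPKM (ratio 8.03, 6.77 to 9.59). Subunits of the phagocyte oxidase were higher too, with 0.824 and 6.49 RPKM for Cybb (ratio 7.88, 5.4 to 11.9) and 1.73 and 14.7 RPKM for Ncf1 (ratio 8.53, 6.05 to 12.4). In the prostaglandin pathway the inducible cyclooxygenase Ptgs2 was at 0.189 and 13.9 RPKM (ratio 73.6, 33.6 to 202) and the synthase Ptges at 0.572 and 4.81 RPKM (ratio 8.4, 5.01 to 15.1). The constitutive enzyme Ptgs1 had a log2 ratio of 0.03, and the importer that clears prostaglandins, Slco2a1, was lower, at 79.2 and 27.6 RPKM (2.86-fold lower, 2.66 to 3.09). The pathway as a whole had 4 higher and 3 lower of 14 tested. Complement genes were higher in 11 and lower in 1 of 16. C3, the central component, was at 1.83 and 25.6 RPKM (ratio 14, 11.1 to 18.1), the receptor C5ar1 at 0.205 and 6.14 RPKM (ratio 29.9, 11.4 to 111), and factor B, Cfb, at 52.8 and 47.4 RPKM, within 2-fold. The lower one was Cfd, which is also an adipocyte gene, with 60 reads in the control and 0 in DSS day 3, at least 22.9-fold lower.

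Marker genes of neutrophils were far apart as well, but their list is not independent of those above. It shares S100a8, S100a9 and Lcn2 with the acute phase list, Il1r2 with the interleukin 1 list and Cxcr2 with the chemokine list. It also shares Mmp8 and Mmp9 with the matrix enzymes and Mpo with the oxidant list. Of 22 markers asked for, 19 were listed and 18 reached the read minimum. These 18 were at least 2-fold higher, with a median log2 ratio of 6.84, but most had so few control reads that they could pass the minimum only through DSS day 3 and had to come out higher. Of the markers found in any of the 7 libraries, 8 had 0 reads in the control and 1 in DSS day 3. Both counts include Mpo, at 0 in each. Their summed level was 4.65 RPKM in the control and 1550.0 RPKM in DSS day 3, to which S100a8, S100a9 and Lcn2 contributed most. Genes best known from neutrophils themselves showed the same. Csf3r, the receptor of the neutrophil growth factor, was at 0.231 and 13.2 RPKM (ratio 57, 27.4 to 143), and Retnlg had 0 and 425 reads, at least 124-fold higher. Mmp8, neutrophil collagenase, had 0 and 485 reads and was at least 141-fold higher. Mpo, a granule enzyme made early in neutrophil development, had 0 reads in both libraries, and Ly6g and Elane were not listed. Of 20 macrophage and monocyte markers 17 were higher and 0 lower, with summed levels of 67.4 and 382 RPKM. Arg1 stood at 0.351 and 27.5 RPKM (ratio 78.3, 30.3 to 289), the lineage receptor Csf1r at 0.909 and 8.61 RPKM (ratio 9.47, 6.38 to 14.6), and Adgre1 at 0.201 and 2.39 RPKM (ratio 11.9, 4.84 to 37.7). Cx3cr1, a receptor of resident macrophages, had a log2 ratio of 0.17. The part of neutrophils and macrophages in the higher cytokine, acute phase and oxidase values was not tested, and in RNA of a bulk scraping more cells of a type cannot be told apart from more RNA per cell.

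Stromal genes were higher as well. Of 20 tested fibroblast and matrix markers 18 were higher and 0 lower (median log2 ratio 2.77, summed level 26.7 and 199.9 RPKM). The collagen chains Col1a1 and Col3a1 stood at 1.16 and 16.9 RPKM (ratio 14.5, 10.6 to 20.3) and at 2.09 and 21.2 RPKM (ratio 10.2, 8.19 to 12.8), and Dcn, decorin, at 2.08 and 29 RPKM (ratio 14, 9.65 to 20.9). Endothelial markers were low in both libraries, 10.2 and 17.8 RPKM in sum, with 7 of 16 higher and 1 lower. Smooth muscle markers were not higher as a list, at 37.8 and 29.4 RPKM in sum with 1 of 8 higher and 1 lower. Lymphocyte markers went both ways. T and NK cell markers summed to 24.6 and 17 RPKM, with 5 higher and 7 lower of 21, and the T cell receptor subunit Cd3e was at 33 and 11 reads (3.44-fold lower, 1.69 to 7.54) while Foxp3, of regulatory T cells, was at 2 and 20 (ratio 8.73, 2.12 to 77). Itgae, the integrin that holds T cells within the epithelium, was at 43 and 15 reads (3.28-fold lower, 1.79 to 6.37). B and plasma cell markers summed to 208 and 268 RPKM, with 2 higher and 3 lower of 16. Such small counts are not far from the 9.05% and 9.17% over all tested genes. The adipocyte markers summed to 59.6 and 63.8 RPKM, with 1 higher and 4 lower of 8, and the defining ones, Cfd and Adipoq, had 60 and 14 reads in the control and 0 in DSS day 3. How far such admixed cells bear on the epithelial values was not tested.

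**Figure D3:**
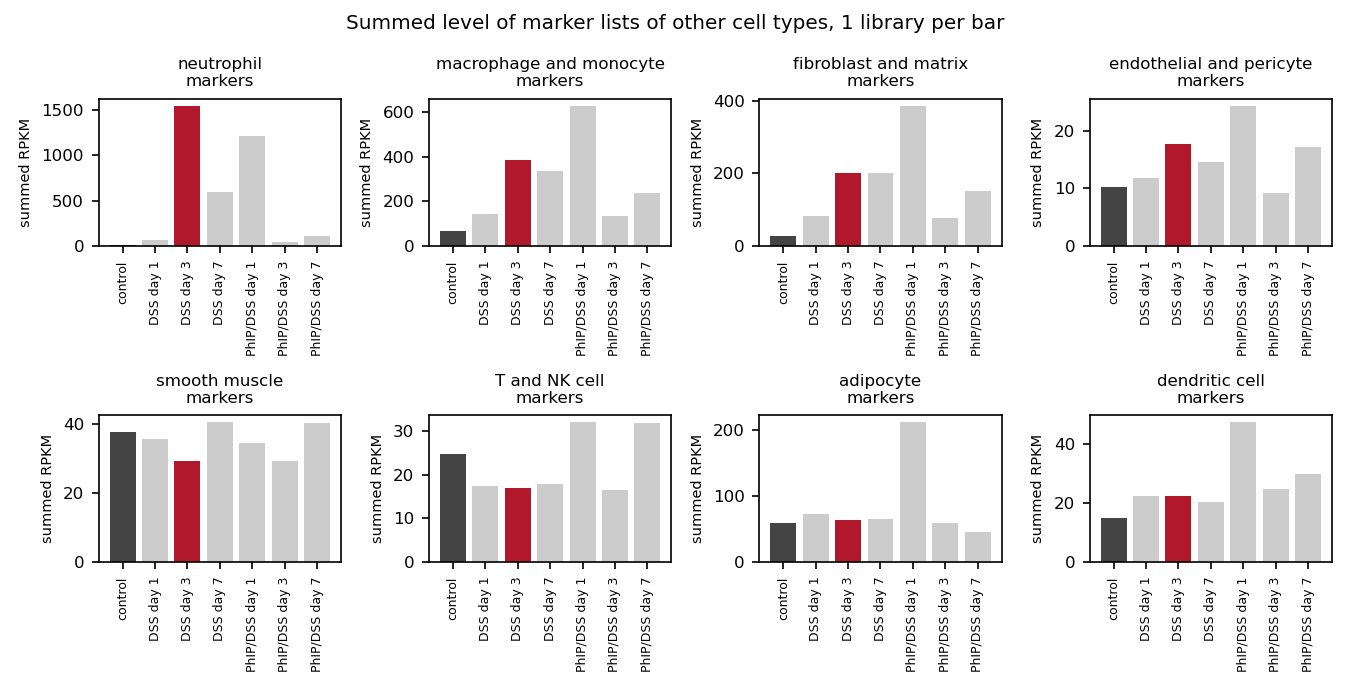
Summed RPKM of 8 marker lists of cells other than epithelium, 1 bar per library, with the control dark, DSS day 3 red and the other 5 libraries pale. Neutrophil markers reached 1550.0 RPKM in DSS day 3, the highest of the 7 libraries, while T and NK cell and smooth muscle markers stood below the control there.

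Interferon-inducible genes were mostly within 2-fold but nearly all on the higher side. All 17 tested GTPases that restrict intracellular pathogens had a ratio above 1, 5 of them past 2-fold (median log2 ratio 0.79). Gbp5 was at 0.605 and 10.1 RPKM (ratio 16.7, 9.78 to 31), Gbp2 at 20.9 and 40.2 RPKM (ratio 1.92, 1.71 to 2.17), and Irgm1 at 24.9 and 34.2 RPKM (ratio 1.37, 1.21 to 1.55). In the antiviral list 5 of 26 were higher and 0 lower (median 0.52). The 2 largest were Ifitm1 and Ifitm3, membrane proteins that block virus entry, at 1.49 and 74.3 RPKM (ratio 49.96, 25.1 to 116) and at 19.3 and 103 RPKM (ratio 5.32, 4.28 to 6.67). Other members were within 2-fold, with log2 ratios of 0.63 for Isg15, 0.43 for Ifit1, -0.07 for Irf7 and -0.10 for Rsad2. The promoter of Gbp5 is shown for the interferon-stimulated response element (GAAA, any 2 bases, GAAA), which was in 9 of 10 GTPases and 13 of 20 antiviral genes with a window and in 3.87% of all 10826 genes on either strand. Its share was 6.68% among higher genes and 3.53% among lower genes. The stretch is on the plus strand, the gene's own, of GRCm38.p6 (RefSeq), and the capitals mark the complement of the element, 165 bases before the start.
Gbp5, chr3:142496734-142496813: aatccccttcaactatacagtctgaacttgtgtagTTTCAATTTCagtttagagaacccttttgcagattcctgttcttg
Antigen presentation was close to the control. None of the 10 MHC class II genes was past 2-fold in either direction, and Cd74, the invariant chain, was at 112 and 104 RPKM. The MHC class I list had 0 higher and 0 lower of 16, with B2m at 916 and 878 RPKM and H2-D1 at 262 and 387 RPKM (ratio 1.48, 1.42 to 1.54).

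Repair genes formed a large higher group. Of 27 genes of the fetal-like repair epithelium 18 were higher, 1 lower and 8 within 2-fold (median log2 ratio 1.30). Ly6a, also called Sca-1, which marks this state, stood at 196 and 821 RPKM (ratio 4.18, 3.95 to 4.42). Ly6d, a small surface protein of the same family, was at 4.32 and 244 RPKM (ratio 56.4, 37.5 to 89.3), and Spp1, osteopontin, also a macrophage product, at 0.258 and 48.6 RPKM (ratio 189, 64.2 to 916). The annexin Anxa1 was at 83.4 and 205 RPKM (ratio 2.46, 2.28 to 2.65) and the keratin Krt7 at 92.5 and 222 RPKM (ratio 2.4, 2.24 to 2.57). Clu, clusterin, a marker of revival stem cells, was within 2-fold, at 28.6 and 41.4 RPKM (ratio 1.45, 1.28 to 1.64). Ccnd2, cyclin D2, was the lower member, at 69.8 and 30.3 RPKM (2.31-fold lower, 2.17 to 2.45). Ligands of the EGF receptor, which drive epithelial spreading and division, included Areg at 15.6 and 46.9 RPKM (ratio 3.01, 2.5 to 3.66) and Ereg at 0.315 and 4.24 RPKM (ratio 13.4, 7.11 to 28.6). Nrg1, a neuregulin of stroma, had 0 and 73 reads, at least 21.2-fold higher. The receptors did not share this, with log2 ratios of 0.48 for Egfr, -0.61 for Erbb2 and -0.78 for Erbb3.

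Matrix-degrading enzymes showed one of the largest medians. Of 19 tested metalloproteinases, plasminogen activators and inhibitors 15 were higher and 1 lower (median log2 ratio 4.00). Mmp7, matrilysin, and Mmp10, stromelysin 2, are made by wound epithelium, and they stood at 0.297 and 52.5 RPKM (ratio 177, 48.6 to 1464) and at 0.0758 and 16.1 RPKM (ratio 213, 37.9 to 8445), on 2 and 1 control reads. Mmp13, a collagenase of stroma, was at 0.195 and 15.7 RPKM (ratio 80.5, 31.2 to 297), and Mmp9, a neutrophil gelatinase, at 0.123 and 16.7 RPKM (ratio 136, 46.3 to 663). The inhibitors split, with Timp1 at 0.288 RPKM on 2 reads and 5.41 RPKM on 43 (ratio 18.8, 4.89 to 159.9) and Timp3 at 21.6 and 5.5 RPKM (3.93-fold lower, 3.39 to 4.58). The membrane enzymes Mmp15 and Mmp14 were within 2-fold, with log2 ratios of 0.01 and 0.51. Among developmental signals Inhba, which forms activin A, had 0 and 116 reads, at least 33.7-fold higher, and Wnt5a, a signal of wound-bed stroma, was at 0.15 and 1.65 RPKM (ratio 11, 4.47 to 35). Bmp2, from the mature colonocyte, was at 38.1 and 18.6 RPKM (2.05-fold lower, 1.85 to 2.27), and Sfrp1, a Wnt antagonist, at 2.68 and 0.208 RPKM (12.9-fold lower, 6.27 to 30.8). That list had 12 higher and 4 lower of 19 tested. Members near 0 in the control, such as Inhba, could pass the read minimum only through DSS day 3. With a minimum of 50 reads 7 were higher and 4 lower of 13. In the Notch and Hedgehog list 1 was higher, Jag2, and 4 of 11 were lower, among them Ihh, the Hedgehog ligand of colonocytes, at 81.8 and 37.9 RPKM (2.16-fold lower, 1.98 to 2.35), and its receptor Ptch1 at 6.3 and 2.75 RPKM (2.29-fold lower, 1.8 to 2.93).

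**Figure D4:**
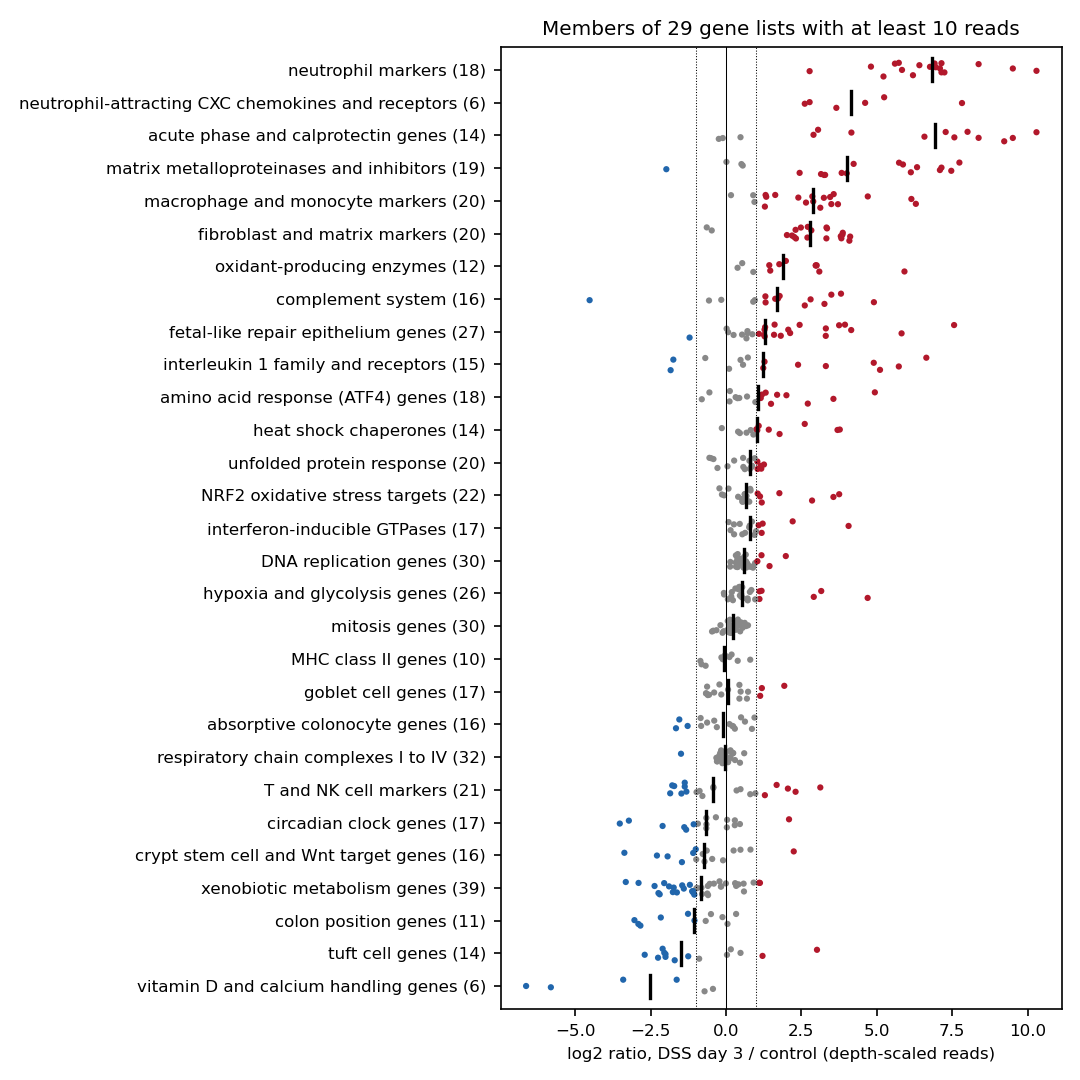
Log2 ratio of each tested member of 29 gene lists (points, red at least 2-fold higher, blue at least 2-fold lower, grey between) with the list's median as a black bar and the number of tested members after its name. Genes at 0 reads on a side are drawn at their bound, and medians run from 6.93 for acute phase genes down to -2.52 for vitamin D and calcium handling genes.

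Stress programmes were higher to different degrees. Heat shock chaperones, which refold proteins, had 8 higher and 0 lower of 14 tested (median log2 ratio 1.02). The inducible pair Hspa1a and Hspa1b, near-identical copies whose reads may be split between them, were at 0.606 and 7.85 RPKM (ratio 13, 7.4 to 24.8) and at 1.95 and 26.6 RPKM (ratio 13.7, 9.99 to 19.1). Hsph1 was at 6.53 and 39.8 RPKM (ratio 6.1, 5.2 to 7.2), and the abundant Hspa8 at 749 and 1537 RPKM (ratio 2.05, 2.01 to 2.1). The unfolded protein response of the endoplasmic reticulum was smaller but even, with 16 of 20 ratios above 1, 5 past 2-fold and 0 lower (median 0.79). Its chaperone Hspa5, also called BiP, was at 119 and 285 RPKM (ratio 2.39, 2.28 to 2.51), and Creld2 at 18.3 and 40.6 RPKM (ratio 2.22, 1.87 to 2.64). The sensors Ern1 and Atf6 and the death factor Ddit3 were on the other side of 1, at log2 ratios of -0.41, -0.50 and -0.55. The stretches printed for Hspa5 and Creld2 hold the endoplasmic reticulum stress element (CCAAT, any 9 bases, CCACG) or its complement, in capitals (RefSeq, GRCm38.p6, plus strand, the genes' own).
Hspa5, chr2:34771994-34772073: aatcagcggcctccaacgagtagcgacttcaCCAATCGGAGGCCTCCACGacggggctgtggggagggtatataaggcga
Creld2, chr15:88819489-88819568: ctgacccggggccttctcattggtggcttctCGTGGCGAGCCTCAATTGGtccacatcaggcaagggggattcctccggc
The element begins 65 and 126 bases before the start. It was in 5 of 16 listed genes with a window against 0.166% of all 10826. Its share was 0.539% among higher genes and 0% among lower genes. The heat shock element (GAA, any 2 bases, TTC, any 2 bases, GAA) was in 3 of 10 chaperone genes against 0.563%. Higher genes had this element in 0.431% and lower genes in 0.83%.

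Genes of the amino acid response, which ATF4 controls, were higher in 9 of 18 cases and lower in 0 (median log2 ratio 1.06). Asns, asparagine synthetase, stood at 13.9 and 39.2 RPKM (ratio 2.81, 2.4 to 3.31), Psat1, of serine synthesis, at 4.09 and 13.2 RPKM (ratio 3.24, 2.49 to 4.26), and Slc7a11, the cystine importer, at 0.438 and 5.17 RPKM (ratio 11.8, 8.18 to 17.6). Chac1, which degrades glutathione, had 1 read in the control and 35 in DSS day 3 (ratio 30.5, 5.13 to 1241). Its promoter carries the amino acid response element TTGCATCA, in capitals, 193 bases before the start (RefSeq, GRCm38.p6, plus strand, the gene's own).
Chac1, chr2:119351013-119351092: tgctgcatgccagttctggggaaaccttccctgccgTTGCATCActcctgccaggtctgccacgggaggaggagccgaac
The element was in 3 of 16 genes of the list and in 0.794% of all 10826 genes with a window. Its share was 1.51% among higher genes and 0.622% among lower genes. Targets of NRF2, the factor that answers oxidants, were higher in 7 of 22 and lower in 0 (median 0.68). Hmox1, haem oxygenase, was at 1.68 and 22.6 RPKM (ratio 13.5, 8.66 to 22.1), and Gpx2, the glutathione peroxidase of the gut, at 193 and 657 RPKM (ratio 3.41, 3.23 to 3.61). Nqo1 was at 10.7 and 23.3 RPKM (ratio 2.19, 1.77 to 2.71), while Gclc, which limits glutathione synthesis, was level at a log2 ratio of 0.08. The antioxidant response element TGACNNNGC was in 8 of 19 of these genes against 16.8% of all. Among called genes it was no more frequent, at 15.8% of higher and 16.1% of lower genes. In the hypoxia and glycolysis list 6 of 26 were higher and 0 lower. The lactate exporter Slc16a3 stood at 7.43 and 55.8 RPKM (ratio 7.51, 6.31 to 9.0) and the glycolytic activator Pfkfb3 at 2.21 and 19.7 RPKM (ratio 8.92, 7.16 to 11.2), whereas Vegfa had a log2 ratio of 0.06.

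Other metabolic lists were nearer to the control. The 32 respiratory chain genes had a median log2 ratio of -0.03, and its 1 lower member was Ppargc1a, the coactivator of mitochondrial biogenesis, at 19.8 and 7.07 RPKM (2.81-fold lower, 2.5 to 3.16). Butyrate use, the main fuel supply of the colonocyte, had 1 higher and 3 lower of 28 (median -0.19). Its sodium-coupled importer Slc5a8 was at 89.5 and 32.8 RPKM (2.73-fold lower, 2.57 to 2.89), and the higher member was Hcar2, a butyrate receptor also found on neutrophils, at 0.201 RPKM on 3 reads and 7.49 RPKM (ratio 37.2, 12.5 to 183). Cholesterol synthesis had 1 higher and 0 lower of 23, and p53 targets 2 higher and 1 lower of 22, with Cdkn1a at 252 and 237 RPKM. Tfrc, the transferrin receptor that takes up iron in growing cells, was at 32.2 and 127 RPKM (ratio 3.95, 3.71 to 4.21). Immediate early genes had 3 higher and 3 lower of 20, with Fos at 131 and 62.5 RPKM (2.09-fold lower, 1.95 to 2.25) and Egr1 at 23.1 and 10.4 RPKM (2.23-fold lower, 1.93 to 2.59), and Ier3 on the higher side at 3.47 and 24.7 RPKM (ratio 7.1, 4.82 to 10.8).

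Genes of cell division were mostly within 2-fold, and for scale the 17 common reference genes had 2 higher, 0 lower and a median log2 ratio of 0.30. All 30 DNA replication genes had a ratio above 1, but 4 were past 2-fold, and their median log2 ratio was 0.59. Rrm2, which helps make the building blocks of DNA, was at 4.39 and 17.3 RPKM (ratio 3.95, 3.06 to 5.15), the helicase subunit Mcm3 at 7.28 and 13.5 RPKM (ratio 1.86, 1.54 to 2.26), and Pcna, the replication clamp, at 45.1 and 62.8 RPKM (ratio 1.39, 1.23 to 1.57). Mitosis genes were closer to the control, with 0 past 2-fold in either direction, 24 of 30 ratios above 1 and a median of 0.22. Top2a was at 19.8 and 32.8 RPKM (ratio 1.66, 1.52 to 1.81) and Mki67, the Ki-67 antigen, at 36.8 and 29.6 RPKM (log2 ratio -0.32). Stem cell and Wnt target genes pointed the other way in part, with 1 higher and 6 lower of 16 (median -0.74). Axin2, a direct target of Wnt, was at 19.9 and 5.22 RPKM (3.82-fold lower, 3.25 to 4.51), Ascl2, a stem cell regulator, at 7.93 and 1.62 RPKM (4.88-fold lower, 3.08 to 8.06), and Sox9 at 43.9 and 21.9 RPKM (2.0-fold lower, 1.83 to 2.19). Lgr5, the defining receptor of crypt stem cells, was level on 98 and 105 reads (ratio 0.935, 0.703 to 1.24). The higher member was Prom1, also called CD133, at 45.2 and 215 RPKM (ratio 4.74, 4.47 to 5.03).

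As lists, the 2 main epithelial lineages stood near the control, with differences within each. Goblet cell genes had 3 higher and 0 lower of 17 (median log2 ratio 0.07). Muc2, the gel-forming mucin, was at 1180.0 and 1238 RPKM (ratio 1.05, 1.04 to 1.06), Tff3, the trefoil peptide, at 1658 and 2323 RPKM (ratio 1.4, 1.36 to 1.45), and Spink4 at 849.7 and 1937 RPKM (ratio 2.28, 2.18 to 2.39). The mucus proteins Clca1 and Fcgbp were on the lower side within 2-fold, with log2 ratios of -0.65 and -0.66. Among enzymes that build mucin O-glycans 4 were higher and 1 lower of 28. The sialyltransferase St3gal4 stood at 0.951 and 32.1 RPKM (ratio 33.7, 20.3 to 60.7), and the chain-extending enzyme B3gnt7, at 509.8 and 154 RPKM (3.31-fold lower, 3.18 to 3.44), was the lower one. Absorptive colonocyte genes had 0 higher and 3 lower of 16 (median -0.09). The lower ones were Car4, at 1326 and 421 RPKM (3.15-fold lower, 3.05 to 3.26), the chloride and bicarbonate exchanger Slc26a3, at 469.8 and 161 RPKM (2.92-fold lower, 2.82 to 3.03), and the water channel Aqp8, at 287 and 119 RPKM (2.41-fold lower, 2.27 to 2.57). Krt20, a keratin of the crypt surface, and Car1 were on the higher side, at 448 and 862 RPKM (ratio 1.92, 1.87 to 1.98) and at 368 and 669 RPKM (ratio 1.82, 1.74 to 1.89).

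Of the 2 rare lineages listed, tuft cell genes had a larger share past 2-fold than enteroendocrine genes. Of 14 tested tuft cell genes, 8 were lower and 2 higher (median log2 ratio -1.47). Trpm5, the taste channel of these chemosensory cells, was at 158 and 28 reads, 4.7 and 0.727 RPKM (6.47-fold lower, 4.31 to 10.04). Dclk1 was at 2.85 and 0.666 RPKM (4.28-fold lower, 3.08 to 6.07) and Pou2f3, the lineage regulator, at 18 and 5 reads (4.12-fold lower, 1.48 to 14.2). Alox5ap, on the higher side at 4.49 and 36.3 RPKM (ratio 8.09, 5.54 to 12.2), is also a gene of neutrophils and macrophages, whose markers were higher here, and their part was not tested. Few reads lay behind the list, and with a minimum of 50 reads the 8 members left had a median of 0.10. Enteroendocrine genes had 2 higher and 4 lower of 20 (median -0.27), against 9.05% higher and 9.17% lower over all tested genes. Tph1, which makes serotonin, was at 11.7 and 4.1 RPKM (2.86-fold lower, 2.38 to 3.45) and Chga, chromogranin A, at 57.6 and 26.1 RPKM (2.21-fold lower, 1.97 to 2.49), whereas the hormones Insl5, at 71.7 and 59.3 RPKM, and Pyy, at 221 and 164 RPKM, were within 2-fold.

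Ion transport genes went both ways. Of 19 chloride and bicarbonate transporters and their kin 4 were higher and 5 lower, and the higher ones were the 4 CLCA family genes Clca4b, Clca4a, Clca3b and Clca3a1. Clca4a was at 92.4 and 311 RPKM (ratio 3.37, 3.21 to 3.53) and Clca3b at 176 and 543 RPKM (ratio 3.09, 2.99 to 3.19), both well counted before DSS. The bicarbonate importer Slc4a4 was at 26.8 and 6.67 RPKM (4.02-fold lower, 3.62 to 4.48), and Cftr at 28 and 18.3 RPKM. For sodium, Slc9a3, the apical sodium and proton exchanger, was higher at 43.8 and 92 RPKM (ratio 2.1, 1.94 to 2.28). The proton pump Atp12a was lower at 194 and 65.9 RPKM (2.94-fold lower, 2.8 to 3.09). Their list had 2 higher and 3 lower of 20, not far from the 9.05% and 9.17% over all tested genes. Tight junction genes were nearly all within 2-fold, with 1 higher and 0 lower of 18. They leaned to the lower side, with 13 ratios below 1 and 5 above (median log2 ratio -0.26). Keratins and desmosome genes had 5 higher and 0 lower of 20, and Krt8 stood at 3127 and 3096 RPKM.

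Vitamin D and calcium genes had a median log2 ratio of -2.52 over 6 tested genes, of which 4 were lower and 0 higher, and of -1.17 with no read minimum. Vdr, the vitamin D receptor, was at 199 and 64.2 RPKM (3.1-fold lower, 2.96 to 3.25), on 6651 and 2456 reads. Trpv6, the calcium channel of the apical membrane, was at 74 and 8 reads (10.6-fold lower, 5.11 to 25.5). With S100g, which carries calcium through the cell, and Slc37a2, both given above, these are the 4 lower members, while the calcium pump Atp2b1 and the partner receptor Rxra were within 2-fold at log2 ratios of -0.71 and -0.43. In the gasdermin and inflammasome list 1 of 16 genes was higher, 5 were lower and 10 within 2-fold (median 0.16), and the lower ones include the gasdermin C genes on chromosome 15. Gsdmc2 stood at 214 and 26.4 RPKM (8.08-fold lower, 7.38 to 8.86), Gsdmc3 at 103 and 7.12 RPKM (14.4-fold lower, 12.1 to 17.3) and Gsdmc4 at 346 and 59.1 RPKM (5.85-fold lower, 5.48 to 6.25), though as close copies they may share reads. Gsdmd, the pore former of inflammatory cell death, was on the other side of 1, at 74.1 and 109 RPKM (ratio 1.47, 1.36 to 1.59), and the sensor Nlrp3 had 0 and 121 reads, at least 35.2-fold higher.

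Genes that handle drugs and foreign compounds were lower in 17 and higher in 2 of 39 tested cases (median log2 ratio -0.81). Cyp2c55, a cytochrome P450 of the colon, stood at 132 and 13.2 RPKM (9.99-fold lower, 8.71 to 11.5), the sulfotransferase Sult1a1 at 184 and 39.1 RPKM (4.71-fold lower, 4.27 to 5.21), and the efflux pump Abcb1a at 101 and 29.8 RPKM (3.39-fold lower, 3.18 to 3.61). The higher ones were the glutathione transferases Gsta1, on 8 and 20 reads, and Gsta3, at 6.3 and 13.5 RPKM (ratio 2.14, 1.62 to 2.87). The mouse genes Cyp1a1 and Cyp1a2, replaced in this line, were not listed in either library. Genes that mark position along the gut were lower in 6 of 11 and higher in 0. Hoxd13 was at 50.6 and 11.3 RPKM (4.47-fold lower, 3.88 to 5.16), Hoxd10 at 9.66 and 1.35 RPKM (7.14-fold lower, 4.53 to 11.8) and Hoxb13 at 320.3 and 134 RPKM (2.39-fold lower, 2.25 to 2.54), all genes of the hindmost gut, though antisense genes lie among the Hoxd genes and the counting is not stated to use strand. Cdx2 was by contrast level at 76.3 and 79 RPKM. Circadian clock genes had 1 higher and 6 lower of 17 (median -0.65). Dbp, an output of the clock, stood at 15.8 and 1.7 RPKM (9.3-fold lower, 6.12 to 14.7) and the repressor Nr1d1 at 110.2 and 25.7 RPKM (4.29-fold lower, 3.91 to 4.7), while Nfil3, which opposes Dbp, was at 1.55 and 6.6 RPKM (ratio 4.25, 2.72 to 6.91). The core genes Arntl and Per2 had log2 ratios of 0.03 and 0.04.

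Set beside the other 2 DSS libraries, the levels followed more than 1 course. These libraries are 1 pool each and share the same control, so only levels are given. S100a9 stood at 16.4 RPKM on day 1, 583 on day 3 and 236 on day 7, and Reg3b at 39.99, 166 and 4.15. Both were highest of the 3 on day 3. The PhIP/DSS libraries did not all share this order. There S100a9 was at 426, 14.4 and 31.7 RPKM on days 1, 3 and 7, highest on day 1. Retnlb was at 1864, 3033 and 1525 RPKM, highest on day 3 as in the DSS libraries. Hspa1b ran from 40.2 RPKM on day 1 through 26.6 on day 3 to 6.38 on day 7 and Rrm2 from 25.5 through 17.3 to 9.91, so day 3 lay between. Prom1 was at 126, 215 and 208 RPKM, and Nr1d1 at 25.5, 25.7 and 25.2 RPKM, the latter alike on all 3 days. Gsdmc4 was at 172, 59.1 and 143 RPKM, with its lowest level on day 3, and Hoxd13 at 21.5, 11.3 and 29.7 RPKM likewise. Over all 7 libraries, DSS day 3 had the highest level of 204 of the 1231 higher genes, and PhIP/DSS day 1 that of 745. Over all 13603 genes these libraries were highest for 881 and 3828. Of the 1247 lower genes, 381 had their lowest level in DSS day 3 and 449 in PhIP/DSS day 1, against 1293 and 3348 over all genes. The higher and lower genes were picked by their DSS day 3 level against the control. A larger share with the extreme in DSS day 3 than over all genes is thus in part built in by that choice.

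**Figure D5:**
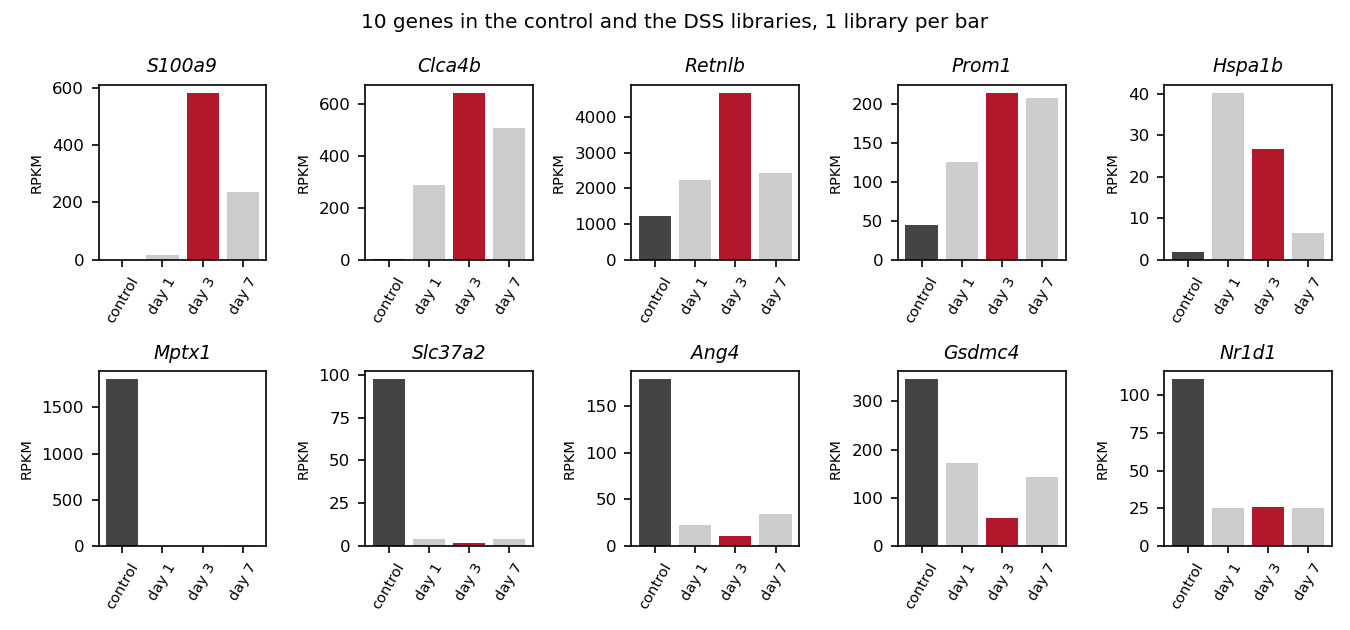
RPKM of 10 genes in the control (dark), DSS day 3 (red) and the DSS libraries of days 1 and 7 (pale), 1 pooled library per bar and a separate linear axis for each gene. Among the DSS libraries S100a9 and Retnlb are highest on day 3 and Hspa1b on day 1. Mptx1 is close to 0 on all 3 days against 1804 RPKM in the control.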

How the data were processed

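RNA of colon epithelium from 3 mice per condition was pooled into 1 library, enriched for poly(A) RNA and sequenced on a HiSeq 2000, per the labels' protocols. The deposited tables give for each gene its length, a count of uniquely mapped reads (with the library total in the header), the percent of the gene covered and the RPKM that the authors computed from them. Per the submitters' processing notes the build was mm10 and FastQC was used. Neither notes nor headers name the aligner, counter, annotation release or strand, or say what the day codes in the file names count from. The codes differ from the labelled days, with the control and DSS day 3 sharing a code, and the labels were used. The authors' RPKM values are printed as deposited.

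The 2 tables were joined on the gene identifier, a missing gene being counted as 0 reads. Symbols, biotypes and coordinates come from the RefSeq table of GRCm38.p6, which matched 16810 of 16855 identifiers, 45 having no symbol. Genes with at least 10 reads over the pair were tested for size only. The ratio is of reads per total, with an exact 95% interval from the binomial split of the reads, and a side at 0 was set to 3 reads. A gene is called higher or lower at 2-fold. With 1 pool per condition no p-value or SD can be given, and the ratios compare these libraries. The script was tested on simulated data.

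The 70 gene lists (1335 of 1337 members matched) and the comparison were chosen with earlier results of these data known. Named genes are the 15 highest and 15 lowest by the interval bound nearer to 1, the 3 highest, 3 lowest and first 4 of each list, the 10 with the most reads, and the 10 with the largest RPKM difference in each direction. Other list members named in the text were chosen after their values were seen. Motifs were searched on both strands of RefSeq promoter windows. Printed stretches come from list members with a match before the start and outside annotated genes, taken by size of ratio. Alternatives were edgeR TMM and DESeq2 scaling, totals without the 20 top genes, other read minimums, pseudocounts of 1 and 0.1 RPKM, the interval bound and 4-fold. Tools were Python 3.11.15, numpy 2.4.6, pandas 2.3.3, scipy 1.17.1, matplotlib 3.10.9, R 4.3.3, edgeR 4.0.16 and DESeq2 1.42.0.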

Additional observations from a re-analysis of the deposited data

How the results depend on the processing

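Each comparison rests on 1 pool per condition, so neither spread between mice nor leaving out a replicate could be assessed. No paired analysis was possible because each condition has 1 library. Against 1231 higher and 1247 lower genes, the counts were 1302 and 1142 with TMM scaling, 1322 and 1126 with DESeq2 size factors, 1256 and 1200 with totals without the 20 top genes, 1122 and 1066 on log2(RPKM + 0.1), and 1499 and 1755 with no filter. They were lower where low genes carried less weight or the rule was stricter: 720 and 659 with at least 50 reads (11313 genes), 675 and 475 on log2(RPKM + 1), 650 and 409 where the nearer interval bound had to pass 2-fold, and 622 and 340 at 4-fold. Of the 2478 called genes, 2357 stayed past 2-fold in the same direction under all 3 other scalings and 0 changed sign. Of 70 lists, 22 had a median past 2-fold, and 13 did on log2(RPKM + 1). At a minimum of 50 reads the tuft cell median was 0.10 over 8 members against -1.47, and that of enteric neuron and glia markers was 3.87, resting on the 1 member left, Ret. At that minimum 6 of the 70 medians changed sign in all, and 3 did with no filter. The others at 50 reads were B and plasma cell markers (-0.32 to 0.12), absorptive colonocyte genes (-0.09 to 0.11), mast cell and eosinophil markers (-0.14 to 0.65) and immediate early genes, which were near 0. With no filter they were dendritic cell markers (0.60 to -0.78), mast cell and eosinophil markers (to 0.07) and the prostaglandin pathway (-0.16 to 0.03). With no filter the vitamin D and calcium median was -1.17 against -2.52, and the adipocyte median, -1.42, was below it. The count of members past 2-fold moved by over 2 in 12 lists on log2(RPKM + 1), in 7 at 50 reads and in 2 with no filter. The median of the respiratory chain genes, -0.03, was above 0 under TMM and DESeq2 scaling, and that of the MHC class II genes under DESeq2. Ratios of genes with few reads on a side, such as S100a8, are the least precise.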

Other observations

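Some genes outside the gene lists were far apart in well counted libraries, and they were chosen here after their values had been seen. They are single genes and stand for no group. Slc20a1, a sodium-coupled phosphate carrier, stood at 308 RPKM in the control and 54.9 RPKM in DSS day 3 (5.62-fold lower, 5.32 to 5.93), the phosphate carrier Slc34a2 at 46.3 and 7.78 RPKM (5.95-fold lower, 5.24 to 6.78), and the magnesium channel Trpm6 at 40.4 and 4.84 RPKM (8.36-fold lower, 7.37 to 9.51). Selenbp1, a methanethiol oxidase of mature colonocytes, was at 376 and 80.6 RPKM (4.66-fold lower, 4.38 to 4.97). On the higher side Marcksl1, an actin-binding protein, was at 18.9 and 243 RPKM (ratio 12.9, 11.3 to 14.8), the sulfatase Sulf2, which trims heparan sulfate, at 3.14 and 39.3 RPKM (ratio 12.5, 10.2 to 15.6), and Igfbp4, which binds insulin-like growth factors, at 2.33 and 35.2 RPKM (ratio 15.1, 10.8 to 21.6). S100a11, a calcium-binding protein, was abundant in both, at 396 and 1485 RPKM (ratio 3.75, 3.54 to 3.96).

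Long noncoding RNAs leaned to the lower side. Of 407 tested, 20 (4.91%) were at least 2-fold higher and 98 (24.1%) at least 2-fold lower, with a median log2 ratio of -0.48, against 1197 (9.16%) and 1114 (8.53%) of 13064 protein-coding genes and a median of -0.04. Transcribed pseudogenes numbered 12 higher and 28 lower of 90. The noncoding genes were less abundant, with a median of 1.44 RPKM in the control against 8.79 RPKM for coding genes, and the part of this difference in level was not tested.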
